A study of Mus musculus with 23 samples.

Results

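The 32 genes described here encode proteins that dividing cells make to copy their DNA and to separate the copies, and they were chosen by symbol from a list of cell cycle genes. All 32 had a row in the deposited table of 18848 genes, and all 32 had a mean of at least 10 normalised reads over the 23 libraries, as did 17256 genes in all. Each library was a stranded mRNA preparation of brain, no region named, and the donors were C57BL/6J males aged 17 postnatal days. Wildtype (WT) mice and Grin2b heterozygous (HT) mice were given vehicle or DCS, and the series title names the C456Y mutant of Grin2b, the gene of an NMDA receptor subunit. The labels do not spell out DCS, which commonly stands for D-cycloserine, a drug that acts at the NMDA receptor's glycine site. The WT vehicle, HT vehicle and HT DCS groups held 6 libraries each, and WT DCS held 5. Dose, route and time after treatment were not given in the sources used here. Whether every library represents a separate mouse is not stated in the labels, and p-values then measure only how far these samples spread, which may be technical.

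Cells that enter the cycle load the MCM helicase onto replication origins, copy DNA with the sliding clamp PCNA, and then build a spindle under the control of cyclins, CDK1 and mitotic kinases. Most neurons have left the cycle for good by this age, and the dividing cells that remain in the mouse brain are mainly oligodendrocyte precursors, neuroblast progenitors of the forebrain niches, late granule cell progenitors of the cerebellum and a few glial and vascular cells. E2F factors switch on the genes of DNA replication, and the MuvB complexes with B-Myb and FoxM1 switch on the genes of mitosis through CHR elements that often stand near CCAAT boxes. In bulk RNA, fewer dividing cells and less RNA per dividing cell cannot be told apart.

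The promoters of 8 genes are shown because 5 of them (Mki67, Ube2c, Ccnb1, Mcm3 and Bub1) varied together from library to library and the other 3 (Hmmr, Pcna and Cenpe) did not vary with them. Each line gives the 150 bases before the RefSeq start of the gene (GRCm38.p6), 5′ to 3′ on the strand of the gene. Capitals mark the CHR core TTTGAA, the CCAAT box and the E2F core words TTCCCGC, then TTGGCGC, also TTCGCGC, as well as TTGCCGC, each searched on both strands, and an E2F word can share bases with a CCAAT box, as in Ccnb1.
Mki67 promoter (chr7:135716380-135716529, minus strand): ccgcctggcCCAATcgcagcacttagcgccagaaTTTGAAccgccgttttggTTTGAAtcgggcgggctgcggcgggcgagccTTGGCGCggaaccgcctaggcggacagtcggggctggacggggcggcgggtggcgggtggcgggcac
Ube2c promoter (chr2:164769779-164769928, plus strand): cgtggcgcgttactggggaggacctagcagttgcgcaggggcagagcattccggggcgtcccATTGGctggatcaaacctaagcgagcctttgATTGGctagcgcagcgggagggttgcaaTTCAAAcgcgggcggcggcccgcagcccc
Ccnb1 promoter (chr13:100786487-100786636, minus strand): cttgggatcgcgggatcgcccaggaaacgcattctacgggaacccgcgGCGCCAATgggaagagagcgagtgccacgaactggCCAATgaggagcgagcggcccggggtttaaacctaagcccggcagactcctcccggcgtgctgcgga
Mcm3 promoter (chr1:20820313-20820462, minus strand): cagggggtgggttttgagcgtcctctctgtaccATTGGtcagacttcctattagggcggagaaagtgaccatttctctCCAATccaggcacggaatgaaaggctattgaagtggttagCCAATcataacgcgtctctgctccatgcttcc
Bub1 promoter (chr2:127831860-127832009, minus strand): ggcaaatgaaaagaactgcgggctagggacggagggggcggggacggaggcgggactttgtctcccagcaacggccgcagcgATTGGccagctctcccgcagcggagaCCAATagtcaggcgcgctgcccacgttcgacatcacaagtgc
Hmmr promoter (chr11:40733438-40733587, minus strand): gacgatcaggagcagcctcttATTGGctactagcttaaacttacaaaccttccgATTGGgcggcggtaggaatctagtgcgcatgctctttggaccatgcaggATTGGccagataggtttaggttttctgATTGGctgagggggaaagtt
Pcna promoter (chr2:132253181-132253330, minus strand): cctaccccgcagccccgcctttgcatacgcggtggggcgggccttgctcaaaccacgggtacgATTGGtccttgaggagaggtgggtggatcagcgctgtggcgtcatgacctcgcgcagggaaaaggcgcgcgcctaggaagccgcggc
Cenpe promoter (chr3:135212413-135212562, plus strand): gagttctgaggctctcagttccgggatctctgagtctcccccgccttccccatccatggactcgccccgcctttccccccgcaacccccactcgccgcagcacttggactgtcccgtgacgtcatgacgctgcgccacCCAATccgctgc

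RefSeq windows from 250 bases before to 50 after the start were matched for 28 of the 32 genes, 30 windows in all, and those of Ccna2, Tpx2, Mcm4 and Aurkb were not analysed here. A CCAAT box stood in 27 of the 30 windows (90.0%), against 37.4% of all 32851 windows of the same length. The CHR core stood in 17 windows (56.7%), against 17.9% of all windows, and each of those 17 also held a CCAAT box, a combination found in 6.95% of all windows. Prc1 had overlapping windows, so the same CHR core and the same CCAAT box of that gene were counted in both of them. The windows of Ccnb2, Cdk1, Mki67 and Top2a held 2 CHR cores each. An E2F core word stood in 10 windows (33.3%), against 9.57% of all windows, and Mcm6, whose protein is a helicase subunit, held the most matches with 5. Overlapping words were counted separately. In Mcm6, the words starting 109 and 106 bases upstream share bases, as do those at 46 and 43. The CCAAT words of Ube2c at 186 and 183 bases upstream also share bases. The windows of Ube2c and Top2a held 6 CCAAT boxes each, that of Hmmr held 5, and those of Pcna and Cenpe held 1 each. Birc5, Nusap1 and Tyms had a window with no match to any of the words. These matches describe letters in a window and do not show binding.

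Levels are normalised read counts, which grow with transcript length, so genes were compared per kilobase of merged exons. Pcna stood far above the other genes at 407 per kb, followed by the helicase genes Mcm4 at 91.7 per kb, Mcm7 at 90.0 per kb and Mcm6 at 53.2 per kb. Most mitotic genes were lower, among them Cdc20 at 26.9 per kb, Mki67 at 14.7 per kb, Cenpf at 4.36 per kb and Bub1 at 3.84 per kb. As normalised read counts, 11 genes had a mean under 50, 17 had a mean from 50 to 200 and 4 (Pcna, Mcm7, Mcm4 and Mcm6) had a mean of at least 200.

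The libraries held 32.3 M to 33.5 M normalised reads each, and their estimated depth was 25.6 M to 37.4 M reads. Grin2b itself had mean normalised read counts of 17910 ± 1189 (SD, n = 6) in WT vehicle, 18770 ± 2543 (SD, n = 5) in WT DCS, 18272 ± 1885 (SD, n = 6) in HT vehicle and 18948 ± 1882 (SD, n = 6) in HT DCS, which does not check the genotype labels because a point mutation need not change the amount of mRNA. Neuronal markers such as Camk2a were abundant in every group. The summed level of 9 Hox genes, which mark the caudal hindbrain, had a median of 277.2 in WT vehicle and 190.4 in WT DCS. The medians were 168.1 in HT vehicle and 183.2 in HT DCS. The lowest sum of HT vehicle was 80.5, while HT DCS replicates 5 and 6 had sums of 34.4 and 42.9. Values of HT DCS below include HT DCS replicates 5 and 6 unless they are said to be left out.

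None of the 32 genes differed between genotypes or treatments past an adjusted p of 0.05 in limma, in a table where 0% of the 17256 genes passed in any of the 5 comparisons. At an unadjusted p under 0.05, 1 of the 32 genes passed in HT vehicle against WT vehicle, where 4.22% of all genes did, and that gene was Hmmr. No member passed the unadjusted threshold in HT DCS against WT DCS (7.55% of all genes), in WT DCS against WT vehicle (2.88%), in HT DCS against HT vehicle (4.8%) or in the genotype by DCS interaction (4.38%). No member had groups free of overlap in any of the 4 pairs of groups, a pattern that 0.249%, 0.411%, 0.33% and 0.127% of all genes showed in the same order. The differences below are therefore values inside the spread of the libraries, and their 95% intervals show how large a difference the data still allow.

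**Figure D1:**
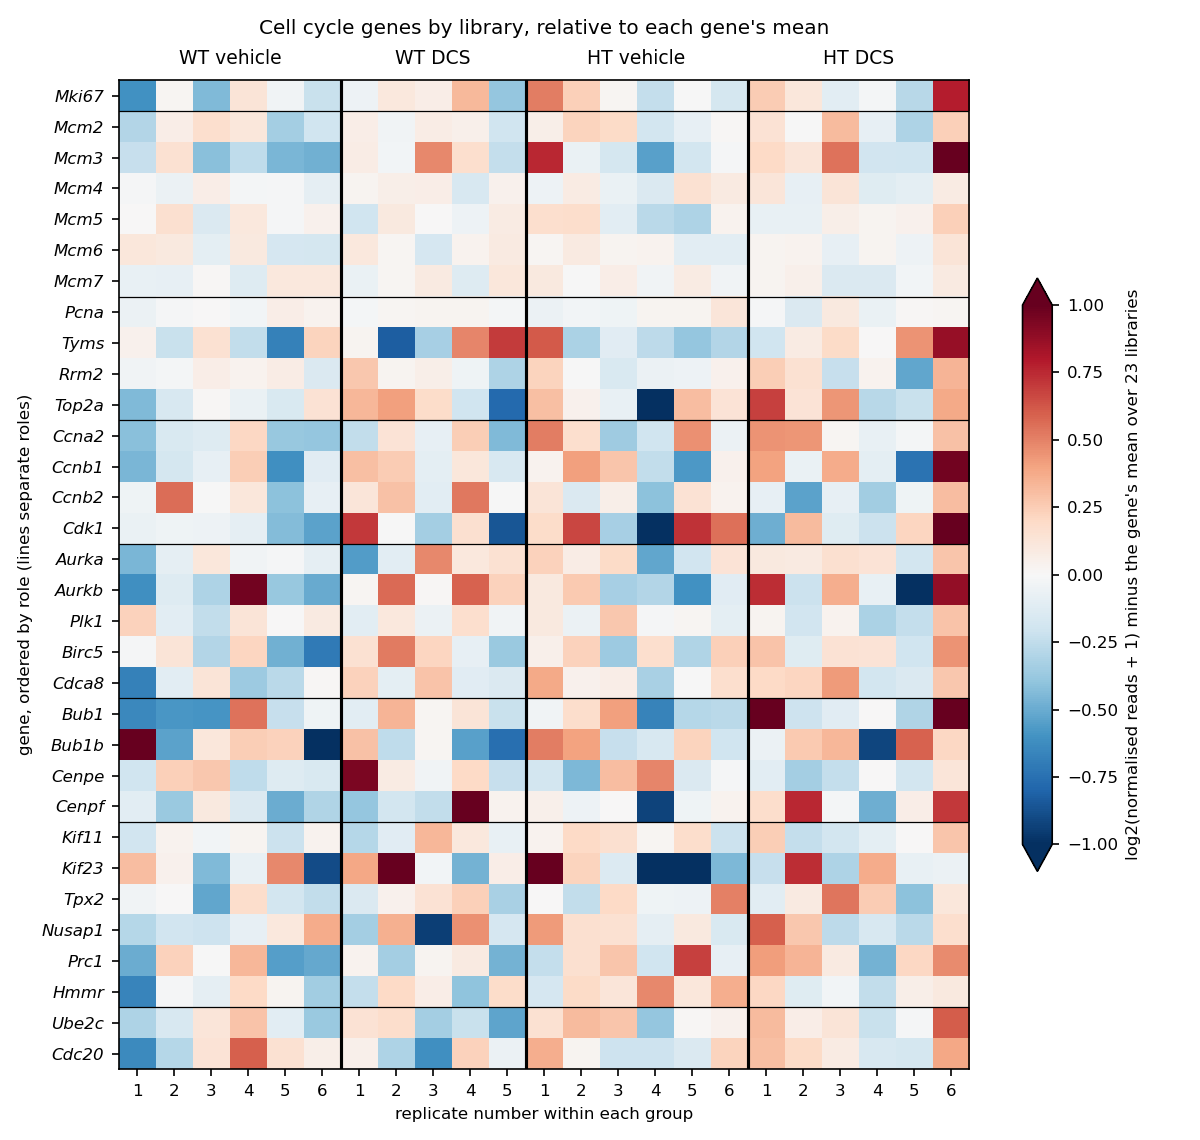
Log2(normalised reads + 1) of the 32 cell cycle genes (rows, ordered by role) in the 23 libraries (columns, by group and replicate number), minus each gene's mean over all libraries, with red above and blue below the mean. HT DCS replicate 6 is red in nearly every row, with 31 of 32 genes above their mean, and HT vehicle replicate 4 is mostly blue, with 6 of 32 above.

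The heat map of all 32 genes shows columns that are red or blue over many genes in every group, so much of the variation lay between libraries of the same group. Mki67, a general proliferation marker, ranged from 94.6 through a median of 132.9 to 157.9 in WT vehicle. In HT vehicle it ran from 122.5 through 145.3 to 206.2. Its WT DCS values were 140.0, 155.6, 151.5, 181.0 and 110.4, and in HT DCS it ranged from 119.5 through 149.6 to 249.8. In the replication group, Mcm7, a helicase subunit, ranged from 362.8 through a median of 389.5 to 427.3 in WT vehicle and from 387.1 through 406.6 to 426.4 in HT vehicle. Mcm7 values were 379.9, 403.7, 423.5, 363.9 and 430.6 in the 5 WT DCS libraries, and they ranged from 359.3 through 397.6 to 423.0 in HT DCS. The 4 groups covered nearly the same range, and the log2 difference of HT vehicle minus WT vehicle was 0.04 ± 0.06 (SE, 95% interval -0.08 to 0.16). Over the 6 MCM genes, the log2 differences of HT vehicle minus WT vehicle ran from -0.08 for Mcm5 to 0.24 for Mcm3, and that of Mcm3 was 0.08 without HT vehicle replicate 1.

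Mcm3, another subunit of the helicase, had the smallest p in WT DCS against WT vehicle. Its 5 WT DCS values were 75.5, 70.3, 100.2, 80.6 and 60.4, and in WT vehicle it ranged from 51.1 through a median of 56.5 to 79.6. All 5 WT DCS libraries lay above the WT vehicle mean of 59.5, but the groups overlapped because WT vehicle replicate 2 reached 79.6. The log2 difference was 0.37 ± 0.20 (SE, 95% interval -0.05 to 0.79), with an adjusted p of 1 in limma and an unadjusted p of 0.0797. In the HT groups Mcm3 ranged from 48.7 through 65.8 to 121.3 with vehicle and from 62.2 through 80.2 to 144.0 with DCS, and the highest values belonged to HT vehicle replicate 1 and HT DCS replicate 6.

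Pcna, the sliding clamp of the replicative polymerases, was the steadiest of the 32 genes, with a coefficient of variation within groups of 4.18%. Its normalised read count ranged from 936.9 through a median of 972.9 to 1024 in WT vehicle and from 937.2 through 975.3 to 1064 in HT vehicle. In WT DCS the values were 963.1, 989.9, 992.1, 993.5 and 960.5, and in HT DCS they ranged from 884.7 through 974.2 to 1046. The ranges of the 4 groups overlapped, and the 95% interval of the log2 difference for HT vehicle minus WT vehicle ran from -0.07 to 0.09. Tyms, the enzyme that makes thymidylate for DNA synthesis, was far more variable, from 29.7 to 87.5 within WT DCS alone. Tyms had one of the smallest p-values in HT DCS against HT vehicle, with means of 65.0 ± 18.8 (SD, n = 6) and 50.5 ± 15.8 (SD, n = 6). Its log2 difference was 0.36 ± 0.23 (SE, 95% interval -0.11 to 0.83, limma adjusted p = 0.973), and it was 0.23 without HT DCS replicate 6 and 0.15 without both HT DCS replicates 5 and 6. Top2a, the topoisomerase that untangles replicated chromosomes, had its lowest value, 49.96, in HT vehicle replicate 4, where the other 5 HT vehicle libraries ran from 106.1 to 138.5.

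Among the cyclins, Ccna2, which drives S phase and entry into mitosis with its CDK partners, had mean normalised read counts of 92.1 ± 16.5 (SD, n = 6) in WT vehicle and 114.9 ± 28.2 (SD, n = 6) in HT vehicle. Ccna2 ranged from 78.7 through a median of 87.7 to 121.9 in WT vehicle and from 82.1 through 110.0 to 150.6 in HT vehicle. Of the 6 HT vehicle libraries, 5 lay above the WT vehicle mean on the log2 scale, and the groups overlapped from 82.1 to 121.9. The log2 difference was 0.30 ± 0.15 (SE, 95% interval -0.01 to 0.61), with an unadjusted p of 0.0603 and an adjusted p of 0.999 in limma. With DCS, the WT values of Ccna2 were 88.9, 116.2, 99.6, 125.3 and 77.2, and the HT values ranged from 99.97 through 118.0 to 144.4. All 6 HT DCS libraries lay above the WT DCS mean on the log2 scale, with a log2 difference of 0.26 ± 0.16 (SE, 95% interval -0.07 to 0.59, limma adjusted p = 0.725). That difference was 0.17 without WT DCS replicate 5 and 0.28 without HT DCS replicates 5 and 6.

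Ccnb2 is a B-type cyclin of mitosis. Its values were 32.05, 36.2, 27.2, 42.8 and 29.3 in WT DCS and ranged from 19.99 through a median of 27.7 to 36.7 in HT DCS, where 1 of 6 libraries lay above the WT DCS mean on the log2 scale. The log2 difference was -0.29 ± 0.18 (SE, 95% interval -0.66 to 0.07, limma adjusted p = 0.722), and it was -0.43 without HT DCS replicates 5 and 6 (limma adjusted p = 0.998). Without those libraries, 1 of the 32 members, from the cyclin and CDK1 group, was lower at an unadjusted p under 0.05 in limma. With all libraries kept no member was, where 4.13% of all genes were lower at that threshold. The share of all genes without HT DCS replicates 5 and 6 was not counted. Ccnb1, the main cyclin of CDK1 at mitotic entry, had a log2 difference of 0.06 ± 0.23 (SE, 95% interval -0.41 to 0.53) in the same comparison, -0.11 without HT DCS replicate 6 and 0.24 without HT DCS replicate 5. The intervals of both B-type cyclins covered 0, and the difference between the 2 genes was not tested. Cdk1, the kinase itself, showed a wide spread in HT vehicle, from 15.1 to 51.9, and its log2 difference of HT vehicle minus WT vehicle, 0.34 ± 0.28 (SE), had an interval from -0.24 to 0.91. It was 0.56 without HT vehicle replicate 4 and 0.22 without HT vehicle replicate 5.

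Plk1, a kinase of spindle assembly and cytokinesis, varied little, with medians of 54.3 in WT vehicle, 51.3 in WT DCS, 52.7 in HT vehicle and 49.7 in HT DCS. The groups overlapped, and the log2 differences ran from -0.10 to 0.02 over the 4 pairs of groups. The lowest of them, HT DCS minus HT vehicle, was -0.17 without HT DCS replicate 6. Cdca8, a subunit of the chromosomal passenger complex, ranged from 30.5 through a median of 43.1 to 53.9 in WT vehicle and had values of 58.0, 45.9, 60.3, 45.5 and 44.4 in WT DCS. All 5 WT DCS libraries lay above the WT vehicle mean on the log2 scale, with a log2 difference of 0.25 ± 0.16 (SE, 95% interval -0.07 to 0.57, limma adjusted p = 1), and it was 0.15 without WT vehicle replicate 1. In HT vehicle, Cdca8 ranged from 39.1 through 51.3 to 64.4, a log2 difference of 0.27 ± 0.15 (SE, 95% interval -0.04 to 0.57) from the same WT vehicle libraries, and 0.18 without WT vehicle replicate 1. Aurkb, the kinase of that complex, had the largest log2 difference of the 32 genes in WT DCS minus WT vehicle, 0.45 ± 0.30 (SE, 95% interval -0.17 to 1.06), with WT vehicle replicate 4 at 39.4 and the other 5 WT vehicle libraries from 12.6 to 17.9. Without that library the difference was 0.67.

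The kinetochore and checkpoint genes held the most uneven values. Bub1b, which encodes the checkpoint protein BubR1, ranged from 49.7 through a median of 121.8 to 271.2 in WT vehicle and from 91.8 through 111.5 to 154.7 in HT vehicle. Its WT DCS values were 132.7, 90.7, 109.4, 74.0 and 63.8, and its HT DCS values ranged from 56.7 through 127.2 to 163.2. WT vehicle contained both the lowest and the highest value of Bub1b in the study. Bub1, a checkpoint kinase with the lowest level of the 32 genes, had the smallest p of the members in HT DCS against HT vehicle. It ranged from 9.32 through 13.9 to 20.8 in HT vehicle and from 12.3 through 14.8 to 45.4 in HT DCS. The HT DCS mean of 22.8 ± 14.3 (SD, n = 6) stood well above the HT DCS median of 14.8, and 3 of 6 HT DCS libraries lay above the HT vehicle mean on the log2 scale. The log2 difference of 0.45 ± 0.29 (SE, 95% interval -0.13 to 1.04, limma adjusted p = 0.973) was 0.22 without HT DCS replicate 6, 0.29 without HT DCS replicate 1 and 0.33 without HT DCS replicates 5 and 6.

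Cenpe, the kinetochore motor that moves chromosomes to the spindle equator, had the smallest p of the members in HT DCS against WT DCS and in the interaction. Its WT DCS values were 137.8, 75.4, 69.7, 81.7 and 60.4, and in HT DCS it ranged from 56.2 through a median of 64.3 to 77.4. No HT DCS library lay above the WT DCS mean on the log2 scale, yet the ranges overlapped from 60.4 to 77.4. The log2 difference was -0.31 ± 0.18 (SE, 95% interval -0.68 to 0.05, unadjusted p = 0.0856, limma adjusted p = 0.703), and it was -0.13 without WT DCS replicate 1. In the vehicle groups Cenpe ranged from 59.6 through 64.7 to 86.2 in WT and from 52.0 through 67.6 to 100.1 in HT, and its interaction estimate was -0.35 ± 0.24 (SE, 95% interval -0.85 to 0.15, limma adjusted p = 0.984), or -0.16 without WT DCS replicate 1. Cenpf, a large kinetochore protein of late G2 and mitosis, lay between 46.9 and 63.2 in 4 WT DCS libraries and at 225.1 in WT DCS replicate 4.

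Hmmr, a spindle and centrosome protein, gave the one unadjusted p under 0.05 among the 32 genes. It ranged from 26.1 through a median of 40.3 to 48.2 in WT vehicle and from 37.0 through 46.8 to 58.7 in HT vehicle. Of the 6 HT vehicle libraries, 5 lay above the WT vehicle mean on the log2 scale, and the groups overlapped from 37.0 to 48.2. The log2 difference was 0.33 ± 0.15 (SE, 95% interval 0.02 to 0.64, unadjusted p = 0.0379, limma adjusted p = 0.999), and it was 0.23 without WT vehicle replicate 1. No member passed the unadjusted threshold when WT vehicle replicate 1 or 6, or HT vehicle replicate 2 or 6, was left out. Leaving out WT vehicle replicate 3 or 4, or HT vehicle replicate 3, gave 2 passing members. Leaving out HT vehicle replicate 4 gave 3, and each other library of the 2 groups gave 1. With all libraries kept 4.22% of all genes passed, and their share in these refits was not counted, so the refit counts have no background. With DCS the genotypes lay together, with WT values of 35.3, 48.0, 43.8, 31.3 and 47.7 and HT values from 35.04 through 42.2 to 48.4, a log2 difference of 0.03 ± 0.16 (SE), or -0.01 without HT DCS replicates 5 and 6. The difference between those genotype effects was -0.30 ± 0.22 (SE, 95% interval -0.75 to 0.15, limma adjusted p = 0.984) and -0.20 without WT vehicle replicate 1, so the data do not show that the genotype effect on Hmmr differed between treatments.

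Tpx2, which activates Aurora A on spindle microtubules, ranged from 61.3 through a median of 82.0 to 100.03 in WT vehicle and from 74.5 through 87.4 to 126.1 in HT vehicle. Its log2 difference of 0.20 ± 0.15 (SE, 95% interval -0.10 to 0.50) was within the spread of the libraries, and it was 0.11 without HT vehicle replicate 6 and 0.12 without WT vehicle replicate 3. Kif23, a motor of the spindle midzone needed for cytokinesis, was at 105.1 in HT vehicle replicate 1 and between 15.9 and 43.8 in the other 5 HT vehicle libraries, and at 94.98 in WT DCS replicate 2, where the WT DCS median was 39.3. Cdc20, which activates the anaphase-promoting complex, ranged from 31.2 through 52.6 to 74.8 in WT vehicle and from 42.5 through 47.2 to 63.5 in HT vehicle, a log2 difference of 0.01 ± 0.18 (SE) that changed sign with single libraries left out. Ube2c, the ubiquitin-conjugating enzyme of that complex, had group means between 24.1 in WT DCS and 29.9 in HT DCS.

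**Figure D2:**
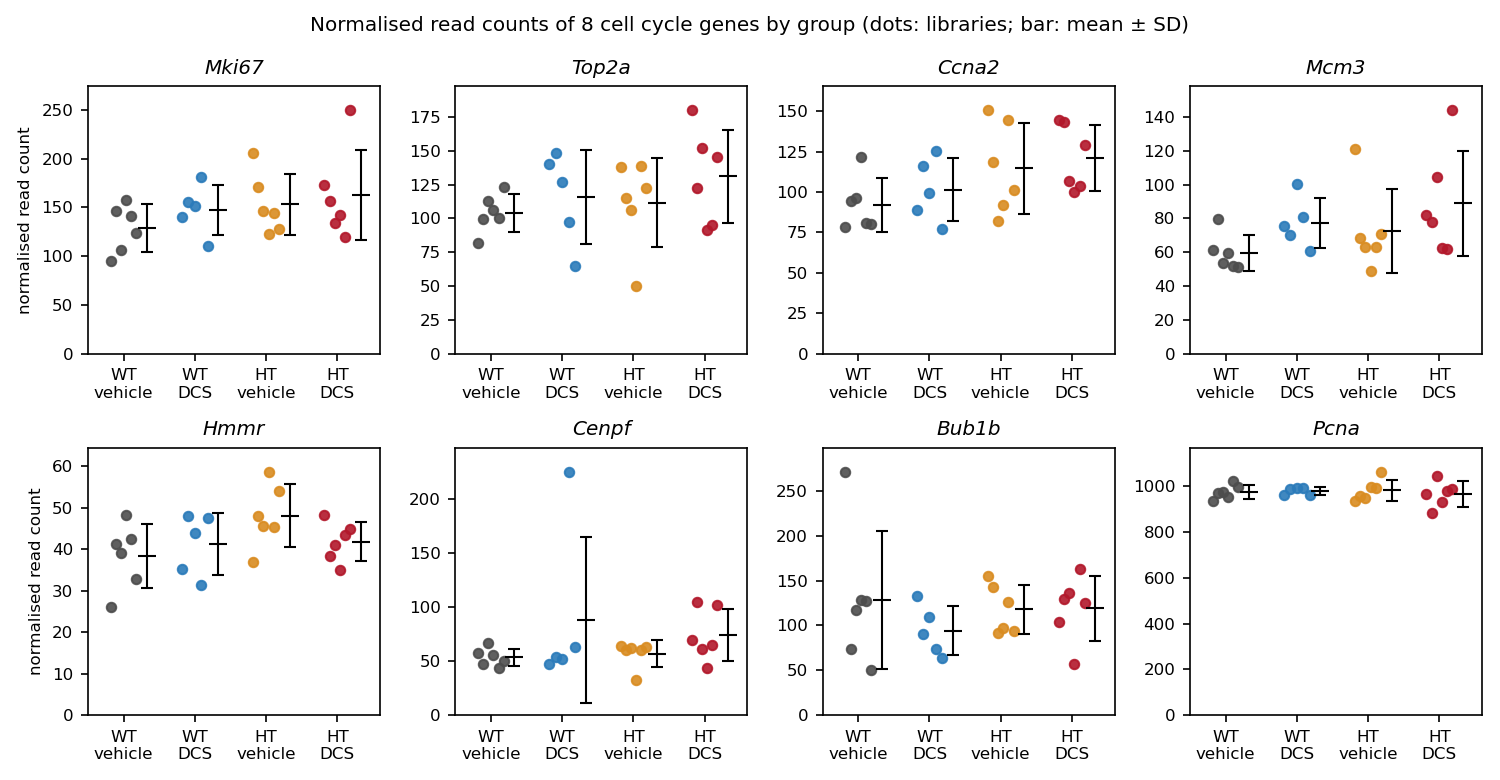
Normalised read counts of 8 cell cycle genes in each library (dots) by group, with the mean ± SD of the group beside them; every vertical axis starts at 0. Pcna is nearly level over the 4 groups, whereas single libraries set the range of Cenpf in WT DCS (225.1) and of Bub1b in WT vehicle (271.2).

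The plot of single genes by group shows that the groups of every gene drawn overlap. Although no single gene passed, the fitted differences were more often above than below 0. In HT vehicle against WT vehicle, 27 of 32 genes were higher, with a median log2 difference of 0.07, where 49.7% of all genes were higher and their median was -0.00. In WT DCS against WT vehicle, 26 of 32 were higher with a median of 0.11, where 50.3% of all genes were higher. In HT DCS against WT DCS, 21 of 32 were higher with a median of 0.06 (49.8% of all genes higher), and in HT DCS against HT vehicle 21 of 32 with a median of 0.07 (49.3% of all genes higher). In the interaction 9 of 32 estimates were above 0, with a median of -0.06, where 49.3% of all genes were above 0. Pairs of these comparisons share libraries: WT vehicle enters both of the first 2, and its mean was the lowest of the 4 groups for 21 of 32 genes. HT DCS had the highest mean for 17 genes, HT vehicle for 8, WT DCS for 6 and WT vehicle for 1, and without HT DCS replicates 5 and 6 these counts were 14, 9, 7 and 2. Over the 21 genes whose mean reached 50, the medians were smaller in HT vehicle against WT vehicle, 0.04 (19 of 21 higher), and in WT DCS against WT vehicle, 0.05 (17 of 21). The median was also smaller in HT DCS against HT vehicle, 0.02 (14 of 21). In HT DCS against WT DCS it stayed at 0.06 (13 of 21). Because the 32 genes vary together between libraries, such counts are a description and not a test.

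By role, the 6 spindle genes had a median log2 difference of 0.17 in HT vehicle minus WT vehicle, with 5 of 6 higher, and the 4 genes of the cyclin and CDK1 group had 0.24, with 3 of 4 higher. The 4 DNA synthesis genes had a median of 0.01 and the 6 MCM genes one of 0.04 in the same comparison. Mki67, alone in its role, had log2 differences of 0.25 in HT vehicle minus WT vehicle and 0.20 in WT DCS minus WT vehicle. They were 0.11 in HT DCS minus WT DCS and 0.07 in HT DCS minus HT vehicle. Without HT DCS replicates 5 and 6, these comparisons with HT DCS gave 0.05 and 0.00 for Mki67. In WT DCS minus WT vehicle the medians were 0.25 for the 5 mitotic kinase and passenger genes, 0.26 for the 4 kinetochore genes, 0.03 for the 6 MCM genes and -0.10 for the 2 genes of the anaphase-promoting complex. The order of the roles was not the same in each comparison, since the anaphase-promoting complex genes, lowest in that one, had a median of 0.27 in HT DCS minus WT DCS, the largest of the 8 roles there.

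**Figure D3:**
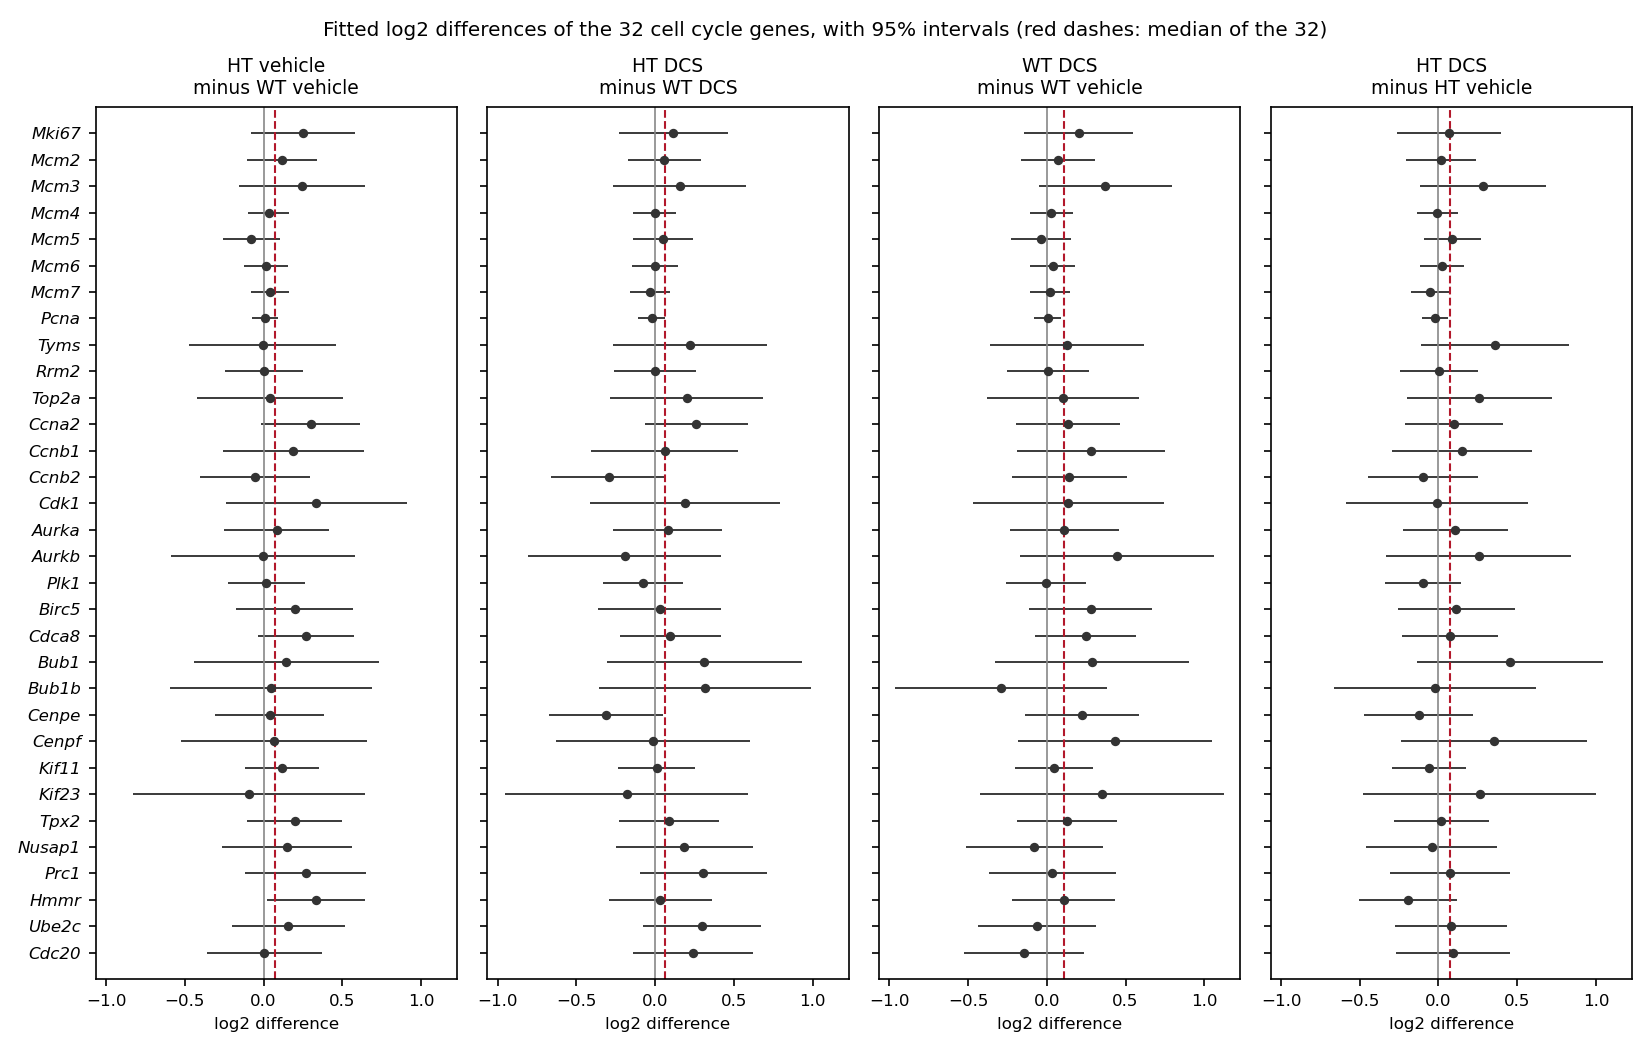
Fitted log2 differences of the 32 cell cycle genes (rows) in 4 comparisons (panels), with points for estimates, bars for 95% intervals and a red dashed line at the median of the 32. The bars cross 0 for every gene except Hmmr in HT vehicle minus WT vehicle, and the medians lie between 0.06 and 0.11.

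The plot of fitted differences makes visible how wide the intervals of genes such as Cenpf, Bub1b and Cdk1 were beside those of Pcna and Mcm7. Single libraries decided part of the counts. Without HT DCS replicate 6, the members higher in HT DCS than in HT vehicle were 15 of 32 with a median of -0.01, and those higher in HT DCS than in WT DCS were 17 of 32 with a median of 0.01. Without HT vehicle replicate 4, the count in HT DCS against HT vehicle was 16 of 32 with a median of 0.00, while that in HT vehicle against WT vehicle was 30 of 32 with a median of 0.16. Without WT DCS replicate 5, the count in HT DCS against WT DCS was 19 of 32 with a median of 0.01, and without HT DCS replicate 5 it was 26 of 32 with a median of 0.13. Without both HT DCS replicates 5 and 6, 19 of 32 were higher in HT DCS than in WT DCS (median 0.04), 22 of 32 in HT DCS than in HT vehicle (median 0.04), and 11 of 32 interaction estimates were above 0 (median -0.04). Leaving out any single library kept the count at 23 to 30 of 32 in HT vehicle against WT vehicle and at 23 to 26 of 32 in WT DCS against WT vehicle, where the median was 0.05 without WT vehicle replicate 1 and 0.06 without WT DCS replicate 4.

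The mean log2 level of the 32 genes was 6.08 ± 0.11 (SD, n = 6) in WT vehicle, 6.20 ± 0.11 (SD, n = 5) in WT DCS, 6.19 ± 0.16 (SD, n = 6) in HT vehicle and 6.27 ± 0.21 (SD, n = 6) in HT DCS, or 6.24 ± 0.13 (SD, n = 4) without HT DCS replicates 5 and 6. The summed normalised read count of the 32 genes ranged from 3580 through a median of 3700 to 3896 in WT vehicle and from 3517 through 3909 to 4206 in HT vehicle. In WT DCS the sums were 3906, 3958, 3887, 4031 and 3610, and in HT DCS they ranged from 3556 through 3960 to 4563, with 4124 the highest when HT DCS replicates 5 and 6 were left out. The ranges overlapped between every pair of groups, and HT vehicle and HT DCS were the wider ones.

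HT DCS replicate 6 stood apart: 31 of the 32 genes were above their mean over all libraries, 11 had their highest value of the study there, and the mean log2 level was 0.42 above that of all libraries. In that library the markers of forebrain stem cells and neuroblasts were 0.24 above their mean, those of cerebellar granule cell progenitors 0.27, those of immature neurons 0.18, and those of oligodendrocyte precursors 0.05. Markers of other cell types were also high there, with meningeal fibroblasts at 0.24, microglia at 0.18, pericytes at 0.18, endothelial cells at 0.10 and committed oligodendrocytes at 0.09. Those of astrocytes were at -0.03, blood at -0.05, mature cerebellar granule and Purkinje cells at -0.07, neurons at -0.09, choroid plexus and ependyma at -0.17, and the Hox genes at -1.98. HT DCS replicate 5, which was as low in Hox genes at -2.15, had the cell cycle genes at -0.13 and the neuroblast markers at 0.01. Its markers of mature cerebellar granule and Purkinje cells were at -0.36, the lowest of HT DCS. Those of microglia were at 0.40 and those of astrocytes at 0.05, the highest of HT DCS. HT vehicle replicate 4, the lowest library for the 32 genes at -0.27, had neuroblast markers at -0.17, oligodendrocyte precursor markers at -0.06 and Hox genes at -0.97. In the same library, markers of pericytes were at -0.19, blood at -0.19, microglia at -0.18, meningeal fibroblasts at -0.11, committed oligodendrocytes at -0.09 and choroid plexus and ependyma at -0.07, with the other 6 lists between -0.05 and 0.03. The part of these markers in the cell cycle values was not tested.

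**Figure D4:**
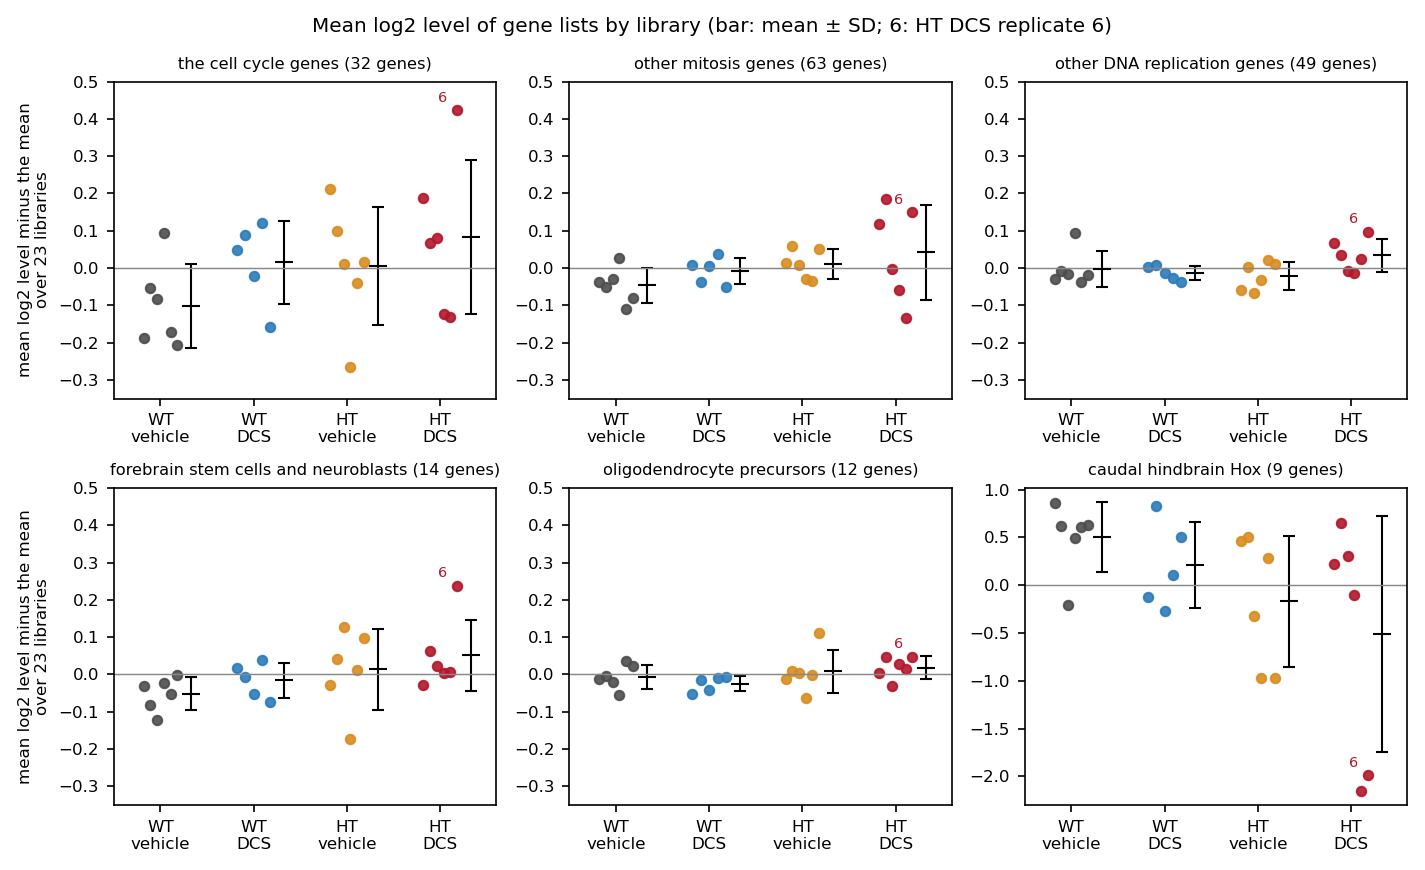
Mean log2 level of 6 gene lists in each library (dots), minus the mean over the 23 libraries, by group, with the mean ± SD of the group beside the dots; the Hox panel has a wider axis. HT DCS replicate 6, marked 6, is the highest library for the cell cycle genes (0.42) and the neuroblast markers (0.24), and is low for the Hox genes (-1.98).

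The plot of list means by library shows the same library at the top and the same library at the bottom for the neuroblast markers as for the cell cycle genes, and a narrow spread of the oligodendrocyte precursor markers. The summed level of the 14 neuroblast markers ranged from 6675 to 7214 in WT vehicle, from 6881 to 7635 in WT DCS, from 6544 to 8063 in HT vehicle and from 7174 to 8499 in HT DCS. The 12 oligodendrocyte precursor markers summed to 26458 to 27812 in WT vehicle, 26647 to 27044 in WT DCS, 26252 to 28535 in HT vehicle and 26933 to 27457 in HT DCS. The 9 granule cell progenitor markers summed to 4641 to 5219, 4737 to 5258, 4561 to 5345 and 4692 to 5184 in the same order of groups. None of the markers of these 3 lists was at 0 in any library. In HT vehicle against WT vehicle, 11 of 14 neuroblast markers, 7 of 12 oligodendrocyte precursor markers, 6 of 9 granule cell progenitor markers and 12 of 12 microglial markers were higher, with medians of 0.07, 0.01, 0.02 and 0.15 and no gene past an adjusted p of 0.05 in limma. Vascular and border cell markers were also mostly higher in that comparison. All 10 endothelial and all 10 meningeal fibroblast markers were higher (medians 0.07 and 0.13). So were 6 of 8 pericyte markers (0.16) and 7 of 10 choroid plexus and ependyma markers (0.24). At an unadjusted p under 0.05 in limma, 4 of 10 choroid plexus and ependyma, 2 of 12 oligodendrocyte precursor and 2 of 8 pericyte markers were higher. Cspg4 counts in both of the last lists. At that threshold 1 of 10 endothelial and 1 of 14 neuroblast markers were higher, where 2.19% of all genes were. Of the microglial, meningeal fibroblast and granule cell progenitor markers, 0 passed. All 9 Hox genes (-0.71) and all 6 blood genes (-0.13) were lower, with 1 Hox gene and 0 blood genes at that threshold (2.03% of all genes). In HT DCS against HT vehicle, 1 of 10 endothelial, 4 of 10 meningeal fibroblast, 5 of 8 pericyte and 0 of 10 choroid plexus and ependyma markers were higher. In HT DCS against WT DCS these counts were 9 of 10, 3 of 10, 6 of 8 and 2 of 10. In WT DCS against WT vehicle they were 3 of 10, 9 of 10, 7 of 8 and 8 of 10. Their part in the cell cycle values was not tested.

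Of the other genes of the cycle, none passed an adjusted p of 0.05 in any comparison. Among 49 other DNA replication genes (of 50 listed), 18 were higher in HT vehicle than in WT vehicle, 31 in HT DCS than in WT DCS, 18 in WT DCS than in WT vehicle and 34 in HT DCS than in HT vehicle. Their medians were -0.03, 0.04, -0.03 and 0.04, below 0 in both comparisons with WT vehicle, where the medians of the 32 genes were above 0. At an unadjusted p under 0.05, the comparison of HT vehicle with WT vehicle had 2 higher and 0 lower, where 2.19% of all genes were higher and 2.03% lower. In HT DCS against WT DCS 3 were higher and 0 lower (3.42% and 4.13% of all genes), and in WT DCS against WT vehicle 0 were higher and 3 lower (1.26% and 1.62%). In HT DCS against HT vehicle 2 were higher and 0 lower (2.22% and 2.58%). The most abundant of them, Dnmt1, which copies DNA methylation to new strands, averaged 2201 normalised reads in the WT and 2301 in the HT vehicle libraries, and Rpa1, which coats single-stranded DNA, averaged 1491 and 1471. Among 63 other mitosis genes (of 66 listed), 40, 37, 39 and 37 were higher in the same 4 comparisons, with medians of 0.04, 0.05, 0.04 and 0.02. Without HT DCS replicates 5 and 6, 31 of 49 replication genes were higher in HT DCS than in WT DCS and 30 in HT DCS than in HT vehicle (medians 0.02 and 0.03), as were 32 and 36 of 63 mitosis genes (0.01 and 0.03). Cit, a kinase of cytokinesis that is also made in neurons, and Ncapd2, a condensin subunit, were the most abundant, with means of 5989 and 992.5 in WT vehicle and 6025 and 1021 in HT vehicle.

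Many regulators of the cycle are also made in resting cells. Of 19 measured genes for cell cycle transcription factors and the DREAM and MuvB complexes, 14 were higher in HT vehicle than in WT vehicle and 11 in HT DCS than in WT DCS, with medians of 0.02 and 0.01. Rbbp4, a histone-binding subunit of MuvB, had means of 3600 and 3566 in WT and HT vehicle. Of 9 G1 cyclins and kinases, 7 were higher in HT vehicle than in WT vehicle with a median of 0.03, and Ccnd2 had means of 2053 and 2071. Of 11 CDK inhibitors and p53 arrest genes, 8 were higher in HT vehicle than in WT vehicle and 4 in HT DCS than in WT DCS (medians 0.01 and -0.03). In WT DCS against WT vehicle 7 were higher, and in HT DCS against HT vehicle 2. At an unadjusted p under 0.05 in limma, 3 were lower and 0 higher in HT DCS against WT DCS. Of all genes 4.13% were lower and 3.42% higher there. In HT vehicle against WT vehicle 1 was higher and 0 lower (2.19% and 2.03% of all genes). Btg1, an antiproliferative gene, had means of 1930 in WT DCS and 1660 in HT DCS.

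How far the 32 genes varied within groups was set against the variance that counting reads alone would give at the estimated depth. The median ratio of the variances was 2.45, with 14 genes under 2 and 7 at 5 or more. Plk1 had the lowest ratio, 0.748, followed by Ube2c at 1.05, Aurka at 1.14 and Hmmr at 1.15. The depth was estimated from a step that only part of the low values followed, so these ratios are approximate. Cenpf at 21.4, Bub1b at 19.5 and Kif23 at 12.5 had the highest, with the far libraries named above, 2 of them for Kif23. Mki67 was at 7.54 and Top2a at 7.73.

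The genes also moved together. As a description over 23 libraries, which share their library between all genes, the deviations from group means had a median Pearson r of 0.20 over the 496 pairs of members, from -0.55 to 0.82, and 78.4% of pairs were above 0. In pairs taken from every 10th gene of the table, 49.9% were above 0 with a median of -0.00. Without HT DCS replicate 6 the median over members was 0.15. Pairs of the same role had a median r of 0.11 (59 pairs) and pairs of different roles 0.21 (437 pairs), so genes of one role were not closer than others.

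Against the mean of the other 31 genes, Mki67 had an r of 0.81, Ube2c 0.80, Ccnb1 0.78, Mcm3 0.75, Aurkb 0.75 and Bub1 0.75, and without HT DCS replicate 6 the values were 0.72, 0.75, 0.68, 0.64, 0.71 and 0.63. At the other end, Hmmr had 0.04, Mcm7 0.04, Pcna 0.00 and Cenpe -0.08. Pcna and Mcm7 are among the most abundant of the 32 genes, and both varied little, with coefficients of variation within groups of 4.18% and 6.38%. The promoters printed above belong to both ends of this order. Over the full windows, Mki67 and Ube2c held CHR cores and Ccnb1, Mcm3 and Bub1 held none, with TTTGAA the only CHR word searched. Hmmr, at the low end, held 1 CHR core and 5 CCAAT boxes in its window. That core lies after the start and 1 of the boxes lies 172 bases upstream, so neither is in the printed bases. Of the genes with a window, Cenpe, Pcna and Mcm7 had the lowest r, and their windows held 0 CHR cores. Next after Hmmr, Tyms (r of 0.07) held 0 and Bub1b (0.09) held 1. A relation between these words and the order was not tested.

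**Figure D5:**
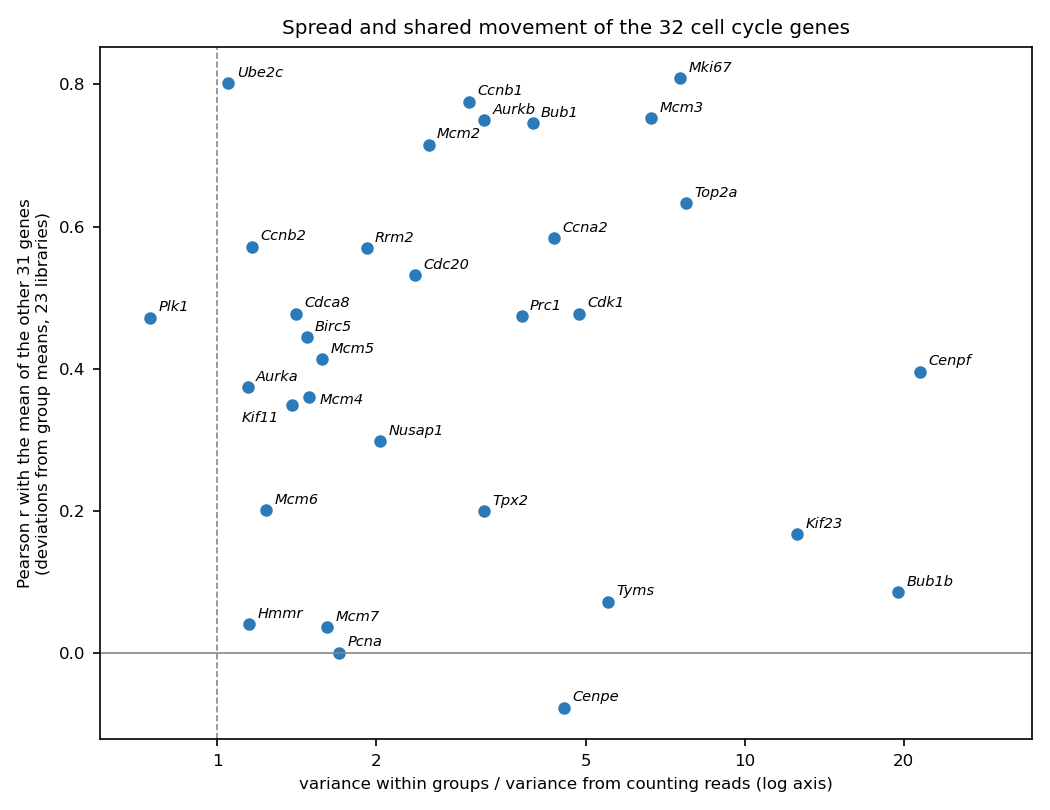
Each of the 32 cell cycle genes by the ratio of its variance within groups to the variance from counting reads (horizontal, log axis) and its Pearson r with the mean of the other 31 genes over 23 libraries (vertical). Mki67 combines a ratio of 7.54 with an r of 0.81, whereas Bub1b and Cenpf, with ratios of 19.5 and 21.4, have r of 0.09 and 0.40.

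The plot of spread against shared movement separates genes that vary with the rest, such as Mki67 and Mcm3, from genes that vary on their own, such as Bub1b and Kif23. Outside the 32, the genes whose deviations followed the mean of the members most closely over the 23 libraries were Antxr2 (r of 0.78), 0610009E02Rik (0.75), Sf3b3 (0.73), Fabp7 (0.73), Tspan18 (0.73), Timm50 (0.72), Ckap2l (0.71), Mmd2 (0.71), Rgcc (0.71) and Clmp (0.71). Fabp7, a fatty acid binding protein of radial glia and astrocyte precursors, had a mean of 1720 normalised reads, and Ckap2l, a mitotic spindle protein, had a mean of 42.5. These 10 were the highest of all tested genes by rank, so their r is a description, and without HT DCS replicate 6 it ran from 0.56 for Timm50 to 0.78 for Sf3b3.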

How the data were processed

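RNA of 23 brain libraries was sequenced. The authors deposited 1 table of normalised signal values, read counts with decimals after scaling. Salmon 1.1.0, DESeq2 1.26.0, R 3.6.2 and the build GRCm38 appear in the submitters' processing notes without role or order. Low values lay near multiples of 1 step (0.876 to 1.281), but only 58.0% to 77.5% of values up to 5 steps were within 0.15 of a whole multiple, so reads were not recovered. Depth was estimated as total over step. Reads may be split between a gene and its pseudogenes.

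Log2(value + 1) was fitted with limma 3.58.1 (R 4.3.3) over all libraries at once, with each group as a coefficient, trended and robust empirical Bayes, 2-sided tests and Benjamini-Hochberg adjustment at 0.05 over 17256 genes with a mean of at least 10. Fold changes on this scale understate low genes. The script was tested on simulated data. Annotation came from GENCODE M21 (GRCm38), promoters from RefSeq (GRCm38.p6). 16 identifiers had no symbol. The alternatives tried are listed in the closing section. Members and lists were chosen with earlier results of these data known. Named genes were the most abundant member of each role and the 2 smallest p-values per comparison, and in other lists genes past the threshold or else the 2 most abundant. Other genes named for single libraries, promoters or shared movement were chosen after their values were seen.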

Additional observations from a re-analysis of the deposited data

Results flagged for a closer look

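Dixon's criterion was applied in 132 tests within a group, of each gene and of the mean log2 level of the 32 genes. It marked 11 values as far from the others of their group, all of them in single genes (9 genes). Chance alone marks about 1 in 20 such tests. On the high side were Mcm3 in WT vehicle replicate 2 at 79.6 (the others from 51.1 to 61.1) and in HT vehicle replicate 1 at 121.3 (48.7 to 70.9), Tyms in HT vehicle replicate 1 at 82.3 (40.7 to 49.3) and Kif23 in HT vehicle replicate 1 at 105.1 (15.9 to 43.8). Aurkb was high in WT vehicle replicate 4 at 39.4 (12.6 to 17.9), and Bub1b in WT vehicle replicate 1 at 271.2 (49.7 to 128.5). In WT DCS, Cenpe was high in replicate 1 at 137.8 (60.4 to 81.7) and Cenpf in replicate 4 at 225.1 (46.9 to 63.2), while Mcm4 was low in replicate 4 at 294.3 (334.0 to 344.2). In HT vehicle replicate 4, Top2a was low at 49.96 (106.1 to 138.5) and Cenpf at 32.1 (59.8 to 64.1). HT vehicle replicate 1 held 3 of these values and HT vehicle replicate 4 and WT DCS replicate 4 held 2 each. No member moved one way in every library of one genotype and the opposite way in every library of the other.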

How the results depend on the processing

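The 32 genes gave 0 calls at an adjusted p of 0.05 in all 5 comparisons under every alternative fitted: quantile normalisation, pseudocounts of 0.5 and 5, a mean filter of 50 or none, no mean trend, only the groups compared, array weights, replicate numbers as block or covariate, each library left out, and HT DCS replicates 5 and 6 both left out, the last chosen after seeing the data. The count of all genes called stayed at 0 except in HT DCS against HT vehicle, where leaving out 1 library gave 0 to 1 (1 without HT vehicle replicate 1 and 1 without HT DCS replicate 4). Over single libraries left out, the median log2 difference of the 32 genes ran from 0.05 to 0.16 in HT vehicle against WT vehicle, 0.01 to 0.13 in HT DCS against WT DCS, 0.05 to 0.13 in WT DCS against WT vehicle, -0.01 to 0.11 in HT DCS against HT vehicle and -0.11 to -0.00 in the interaction. With HT DCS replicates 5 and 6 left out it was 0.04, 0.04 and -0.04 in the 3 comparisons with HT DCS (against WT DCS, against HT vehicle, and the interaction). With the mean filter of 50, which keeps 21 of the 32 genes, it was 0.04, 0.06, 0.05, 0.02 and -0.04 in the 5 comparisons. Mki67 gave no call either, and the sign of its differences was not followed. The differences printed for other single genes (26 in all) stayed short of the threshold under each alternative, and 20 kept their sign. The 6 that did not were near 0: over single libraries left out, HT vehicle minus WT vehicle ran from -0.015 to 0.022 for Pcna, -0.034 to 0.061 for Plk1 and -0.12 to 0.12 for Cdc20, HT DCS minus WT DCS from -0.11 to 0.24 for Ccnb1 and -0.060 to 0.090 for Hmmr, and WT DCS minus WT vehicle from -0.055 to 0.039 for Plk1. They also changed sign with quantile normalisation (Cdc20 -0.0051, Hmmr -0.00056, Plk1 0.0050), array weights (Pcna -0.0067, Cdc20 -0.019), the replicate block (Ccnb1 -0.0041, Plk1 0.016) and HT DCS replicates 5 and 6 left out (Hmmr -0.010). Named genes with a mean under 50 have no value under the filter of 50. DESeq2 and edgeR fits were not run, because the table does not hold counts, and a count test was planned only for a table of counts.

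Same-numbered libraries correlated at a median of 0.01 over 33 pairs (-0.07 to 0.30, with 5 over 0.1; other pairs -0.00), and 7 of 23 libraries matched best with their own number, so the numbers were not taken as a pairing. With the replicate block of the title numbers, the medians of the 32 genes were 0.07, 0.04, 0.13, 0.07 and -0.05 in the order above, with 0 calls. The fifth WT DCS library carries another number in its description, and the block with that number also gave 0 calls. With 11 genes under a mean of 50 normalised reads, the counting of reads limits how small a difference can be seen.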
